A study of Mus musculus with 8 samples.

Results

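The 10 genes described here act at neural cell surfaces: Cd24a and Ncam1, which encode the antigens CD24 and CD56 used to sort the cells, and 8 neural adhesion genes of the immunoglobulin superfamily, Ncam2, L1cam, Chl1, Nrcam, Nfasc, Cntn1, Cadm1 and Alcam. They were chosen by symbol, and each matched 1 of the 55414 identifiers in the table. The 8 libraries were made from colon cells labelled as enteric neurons, which form the nervous system of the gut wall, and came from 4 Emb knockdown and 4 WT mice aged 4 weeks, with 4 libraries of each genotype. Emb encodes embigin, a membrane glycoprotein that is itself an immunoglobulin superfamily member. About 250 sorted cells went into a tube; the gate on CD24 and CD56 is not stated, nor that a tube was 1 mouse, so a p-value here speaks to library-to-library spread, which may be technical. How Emb was knocked down, and in which cells, is not stated in the labels.

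Cell adhesion molecules of this kind carry immunoglobulin domains, and many also fibronectin-like domains, at the cell surface. They bind copies of themselves or of each other on the neighbouring cell. In the developing gut they act in the migration and clustering of neural crest cells and in the growth of axons, and glia carry several of them as well as neurons. CD24 is of another kind, a short, heavily glycosylated protein held in the membrane by a lipid anchor.

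Total counts ranged from 2024372 to 2712754 in Emb knockdown and from 698930 to 954191 in WT, and ribosomal RNA took 31.2% to 45.1% of them in Emb knockdown and 5.28% to 14.4% in WT. The targeted gene Emb had 5, 25, 3 and 5 counts in Emb knockdown replicates 1 to 4 and 4, 6, 22 and 16 in WT replicates 1 to 4, so the groups overlapped and counts this low do not settle whether the knockdown took effect. The neuronal label was checked against 12 marker genes, which together reached 220 to 530 CPM (counts scaled to library size with TMM factors) in Emb knockdown and 264 to 453 CPM in WT. Tubb3 and Snap25, genes of nearly all mature neurons, had 1.06 to 5.94 and 0.627 to 8.11 CPM in Emb knockdown and 0 to 6.09 and 1.15 to 15.2 CPM in WT. The enteric glia markers Sox10, S100b, Gfap, Erbb3, Fabp7 and Cdh19 summed to 206 to 439 CPM in Emb knockdown and 91.3 to 178 CPM in WT. Macrophage markers, led by C1qa, summed to 4000 to 6640 CPM in Emb knockdown and 1500 to 4030 CPM in WT, and without C1qa to 584 to 1410 CPM and 993 to 1700 CPM. The label of neurons was thus carried by low counts, beside larger counts of macrophage genes.

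None of the 10 genes passed the adjusted threshold, and Cadm1 stood farthest apart between the genotypes. By edgeR's quasi-likelihood test 0 of the 10 genes passed an adjusted p of 0.05, where 0% of the 11353 genes tested passed; the DESeq2 Wald test called 2 of the 9 it tested, Cadm1 and Alcam, where it called 6.98% of 10732 genes. At an unadjusted p under 0.05 edgeR listed 2 of the 10, Cadm1 and Chl1, both higher in Emb knockdown, beside 13.3% of all genes in either direction and 8.64% in that direction. Of the 10 genes 6 were higher in Emb knockdown and 4 lower, and their median log2 fold change was 0.95, against 0.037 over all genes tested. The groups did not overlap in 3 genes: Cadm1 and Alcam lay higher in Emb knockdown, where 4.03% of all genes did so, and Ncam2 lay lower, where 4.25% did so. In bulk libraries such as these, fewer cells carrying a transcript and less of it per cell cannot be told apart.

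**Figure D1:**
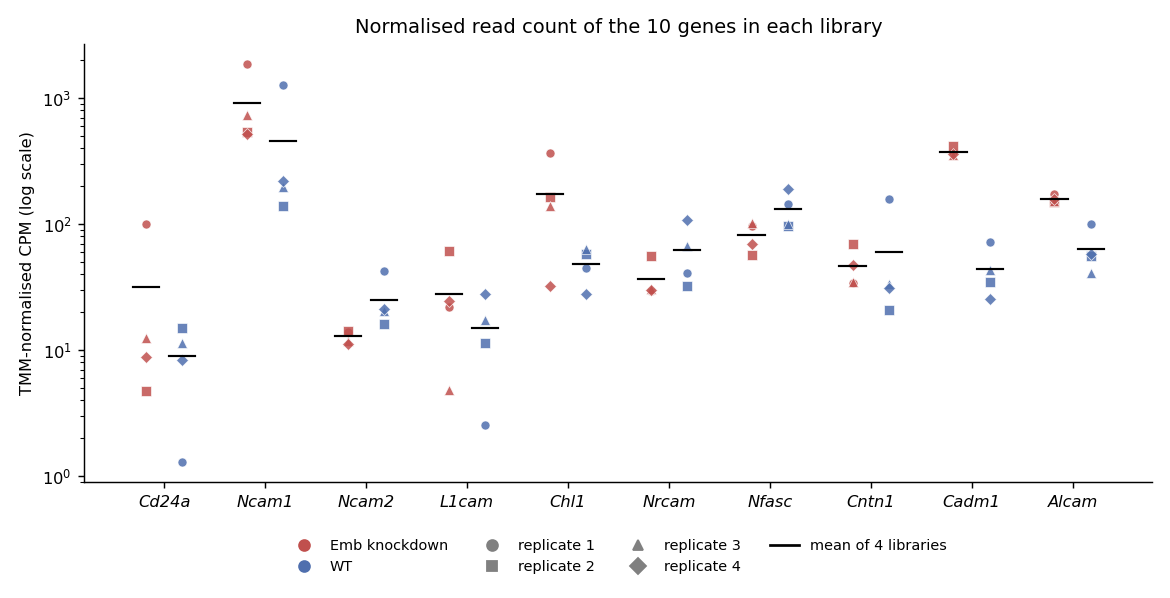
Normalised read count of each of the 10 genes in each library, in TMM-normalised CPM on a log scale, with Emb knockdown on the left of each pair and WT on the right, a marker shape for each replicate number and a bar at the mean of 4 libraries. Cadm1 sits between 354 and 419.9 CPM in Emb knockdown, above its WT libraries at 25.3 to 72.1 CPM, while Ncam1 and Cd24a each have 1 library far above the others in Emb knockdown.

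Cadm1 encodes a nectin-like adhesion molecule, also called SynCAM1, that joins neighbouring cells and the opposing sides of synapses and is made by epithelial and immune cells too. Cadm1 (ENSMUSG00000032076), a protein-coding gene on the plus strand of chromosome 9 (GRCm38, 47530173 to 47857637), had 370.4, 419.9, 354 and 357.1 CPM in Emb knockdown replicates 1 to 4 and 72.1, 34.5, 43.4 and 25.3 CPM in WT replicates 1 to 4. The lowest Emb knockdown library lay far above the highest WT library, and the Emb knockdown libraries lay close together, with the highest at 1.19 times the lowest. The means were 375 ± 30.5 CPM in Emb knockdown and 43.8 ± 20.2 CPM in WT (SD, n = 4 each), an edgeR log2 fold change of 3.10 ± 0.70 (SE; 95% interval 1.57 to 4.62; unadjusted p = 0.000883, adjusted p = 0.275). It ranked 34th of the 11353 genes by p. Leaving out single libraries moved the estimate between 2.98 and 3.51, and under the other scalings it was 2.46 with library totals alone and 3.75 when scaled to chemosensory receptor genes. The Emb knockdown libraries were also those with higher summed levels of those 6 enteric glia markers (206 to 439 CPM, against 91.3 to 178 CPM in WT), a sum made after the values were seen. The part of other cell types in the differences of Cadm1, Alcam and Chl1 was not tested.

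Alcam, also called CD166, is an adhesion molecule that binds itself between neurons and other cells and binds CD6 on T cells. Alcam (ENSMUSG00000022636, chromosome 16, 52248996 to 52454074, minus strand) had 171.9, 150, 151.3 and 157.9 CPM in Emb knockdown replicates 1 to 4 and 100.4, 56.3, 41.1 and 57.6 CPM in WT replicates 1 to 4. Each Emb knockdown library exceeded each WT library, and WT replicate 1 came nearest. The edgeR log2 fold change was 1.31 ± 0.61 (SE; 95% interval -0.027 to 2.64; unadjusted p = 0.0541, adjusted p = 0.378). With library totals alone it was 0.70 and the groups overlapped.

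Chl1, the close homolog of L1, is a neural adhesion molecule of the L1 family, whose members bind ankyrins inside the cell and so reach the spectrin skeleton. Chl1 (ENSMUSG00000030077, chromosome 6, 103510586 to 103750211, plus strand) had 364.4, 163.3, 139.4 and 32.6 CPM in Emb knockdown replicates 1 to 4 and 45.0, 57.5, 63.1 and 28.1 CPM in WT replicates 1 to 4. In 3 of 4 Emb knockdown libraries it lay above every WT library, and Emb knockdown replicate 4 lay among the WT values. The edgeR log2 fold change was 1.85 ± 0.78 (SE; 95% interval 0.13 to 3.56; unadjusted p = 0.0368, adjusted p = 0.345). Leaving out replicate 1 of Emb knockdown gave 1.19, and leaving out its replicate 4 gave 2.21. A small annotated transcript on the same strand inside the Chl1 span, Gm44439, held more reads in sum than Chl1 itself. The sums were 3338 against 1165 in Emb knockdown and 470 against 188 in WT. By library Gm44439 had 689, 1726, 53 and 870 counts in Emb knockdown and 171, 170, 52 and 77 counts in WT. In replicate 3 of each genotype it held fewer reads than Chl1. The exons of Gm44439 and Chl1 share 0 bases, and Gm44439 was highest in Emb knockdown replicate 2, while Chl1 was highest in replicate 1, with 547, 308, 258 and 52 counts in Emb knockdown and 35, 50, 83 and 20 counts in WT.

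The other 3 genes of the L1 family did not separate the genotypes. L1cam, which guides axon growth and the migration of neural crest cells into the gut in mouse, had 22.0, 61.0, 4.86 and 24.4 CPM in Emb knockdown replicates 1 to 4 and 2.57, 11.5, 17.5 and 28.1 CPM in WT replicates 1 to 4. Its libraries spread 12.5-fold within Emb knockdown and 10.9-fold within WT, more than the 1.88-fold difference between the genotypes (edgeR adjusted p = 0.665). The log2 fold change of 0.91 ± 0.83 was 0.21 without Emb knockdown replicate 2, its highest library, and 0.20 with library totals alone. WT replicate 1 held only 2 counts of L1cam. Its exons share 100 bases with Arhgap4 on the same strand, so reads there cannot be assigned with certainty.

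Nrcam and Nfasc help to gather sodium channels at nodes of Ranvier and axon initial segments. Nrcam had 29.3, 55.7, 30.8 and 30.1 CPM in Emb knockdown replicates 1 to 4 and 41.2, 32.2, 66.9 and 108.2 CPM in WT replicates 1 to 4 (edgeR log2 fold change -0.77 ± 0.60, adjusted p = 0.603). Nfasc had 96.6, 57.3, 102.7 and 69.5 CPM in Emb knockdown replicates 1 to 4 and 144.1, 96.6, 100.4 and 189.7 CPM in WT replicates 1 to 4 (edgeR log2 fold change -0.70 ± 0.61, adjusted p = 0.638). In both genes the groups overlapped, and WT replicate 4 was the highest library of the 8. With library totals alone the 2 groups of Nfasc no longer overlapped, Emb knockdown being lower, a scaling that moved the median over all genes to -0.59 (log2). When scaled to receptor genes, which moved that median to 0.64, Nrcam and Nfasc stood at -0.14 and -0.082.

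Ncam1 and its relative Ncam2 bind themselves between neurons, and the protein of Ncam1 is the main carrier of polysialic acid. Ncam1 (ENSMUSG00000039542, chromosome 9, 49502136 to 49798925, minus strand) had 1865, 536, 733.3 and 515 CPM in Emb knockdown replicates 1 to 4 and 1278, 140.2, 197.8 and 220.7 CPM in WT replicates 1 to 4. Replicate 1 was the highest library of each genotype, and WT replicate 1 lay above 3 of the 4 Emb knockdown libraries. The edgeR log2 fold change was 0.99 ± 0.87 (SE; adjusted p = 0.647). It was 0.42 without Emb knockdown replicate 1, 0.31 with library totals alone, 2.38 without WT replicate 1 and 1.72 with both replicates 1 left out, an alternative added after the values were seen (edgeR adjusted p = 0.440). An antisense gene, Gm11149, overlaps 417 exon bases of Ncam1 and had 25 counts in Emb knockdown and 21 in WT, beside 5990 and 1532 counts of Ncam1.

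Ncam2 (ENSMUSG00000022762, chromosome 16, 81200697 to 81626828, plus strand) had 14.0, 14.3, 11.9 and 11.3 CPM in Emb knockdown replicates 1 to 4 and 42.5, 16.1, 20.5 and 21.1 CPM in WT replicates 1 to 4. Its Emb knockdown libraries all lay below the WT libraries, by a narrow margin (edgeR log2 fold change -0.95 ± 0.56, adjusted p = 0.481). The estimate was -0.51 without WT replicate 1. When scaled to receptor genes it was -0.29 and the groups overlapped. In raw counts the 4 libraries of each genotype held 88 and 89 reads of Ncam2.

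Cntn1 encodes contactin-1, a lipid-anchored adhesion molecule of axons that pairs with Cntnap1 beside nodes of Ranvier. It had 34.0, 69.5, 34.6 and 47.0 CPM in Emb knockdown replicates 1 to 4 and 157, 20.7, 33.5 and 30.9 CPM in WT replicates 1 to 4. The 3 other WT libraries lay below all 4 Emb knockdown libraries, while WT replicate 1 lay above them, so the sign of the difference rests on that library. The edgeR log2 fold change was -0.38 ± 0.73 (adjusted p = 0.862) and 0.77 without WT replicate 1, and it was also above 0 when scaled to receptor genes, at 0.32.

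Cd24a (ENSMUSG00000047139, chromosome 10, 43578284 to 43584265, plus strand) had 99.9, 4.77, 12.4 and 8.77 CPM in Emb knockdown replicates 1 to 4 and 1.29, 14.9, 11.4 and 8.43 CPM in WT replicates 1 to 4. Apart from Emb knockdown replicate 1, the Emb knockdown libraries lay within the range of the WT libraries. In raw counts Cd24a had 150, 9, 23 and 14 reads in Emb knockdown and 1, 13, 15 and 6 in WT. Of the 196 reads in Emb knockdown, most came from replicate 1, and the edgeR log2 fold change of 1.77 ± 1.02 (adjusted p = 0.470) was -0.091 without that library. After each library was thinned once to 598214 counts outside ribosomal RNA, Cd24a had 46, 4, 6 and 6 reads in Emb knockdown and 1, 12, 12 and 6 in WT.

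**Figure D2:**
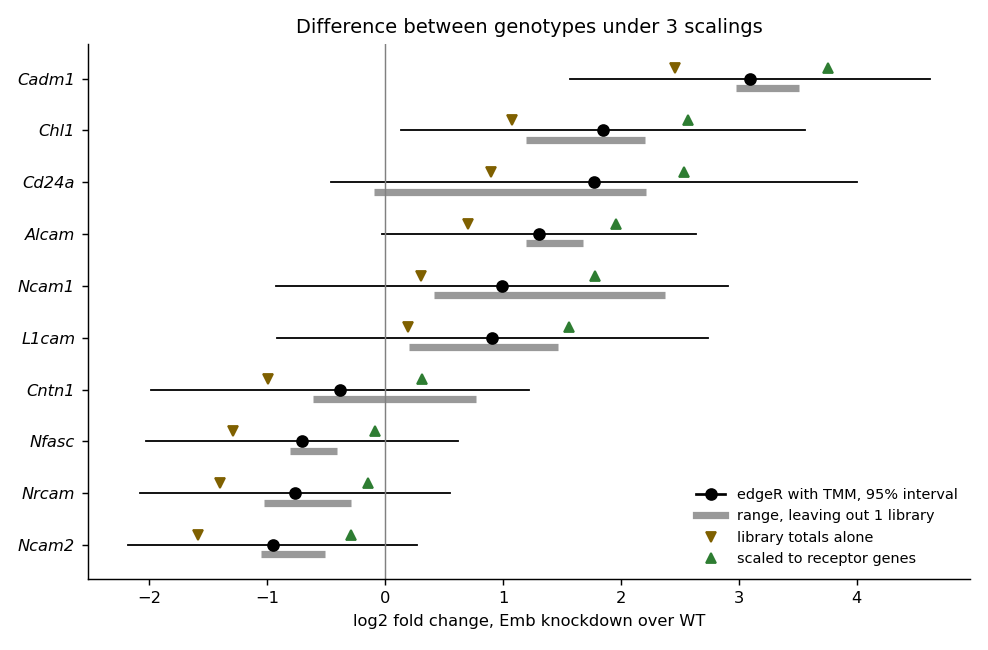
Log2 fold change of each gene, Emb knockdown over WT, as black points with 95% intervals from edgeR with TMM scaling. Grey bars give the range when 1 library is left out and triangles the estimates under library totals alone and under scaling to receptor genes; the interval of Cadm1 and Chl1 lies above 0, and the estimate of Cadm1 stays at 2.46 or more throughout.

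How far each transcript stood above stray counts was read from chemosensory receptor genes (1506 olfactory, vomeronasal and trace amine receptor genes), which serve mainly as odour and pheromone receptors. Their counts per exonic kilobase, in TMM-normalised CPM, were 1.02 ± 0.165 in Emb knockdown and 1.55 ± 0.103 in WT (SD, n = 4 each), a log2 ratio of -0.60. Ncam1, Cadm1 and Alcam lay above 10 times that level in every Emb knockdown library, and Ncam1 alone did so in every WT library. Cadm1 lay at 27.5 to 42.1 times the receptor level in Emb knockdown and at 1.61 to 4.06 times in WT. Alcam lay at 17.2 to 28.7 times and 3.77 to 8.29 times, and Nfasc at 4.22 to 8.11 times and 4.64 to 8.93 times. Ncam2 lay at 0.852 to 1.47 times the receptor level in Emb knockdown and 0.967 to 2.20 times in WT, highest in WT replicate 1. Its reads thus lay near the level of stray counts in both genotypes. Ncam2 was not tested against the spread of single receptor genes. L1cam, at 0.537 to 8.66 times in Emb knockdown and 0.206 to 2.55 times in WT, also fell under that level in some libraries. The median protein-coding gene lay at 1.42 to 1.76 times in Emb knockdown and 0.715 to 1.17 times in WT. A lower TMM-scaled level of a gene that sits near this background, such as Ncam2, cannot be told apart from the lower background itself.

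**Figure D3:**
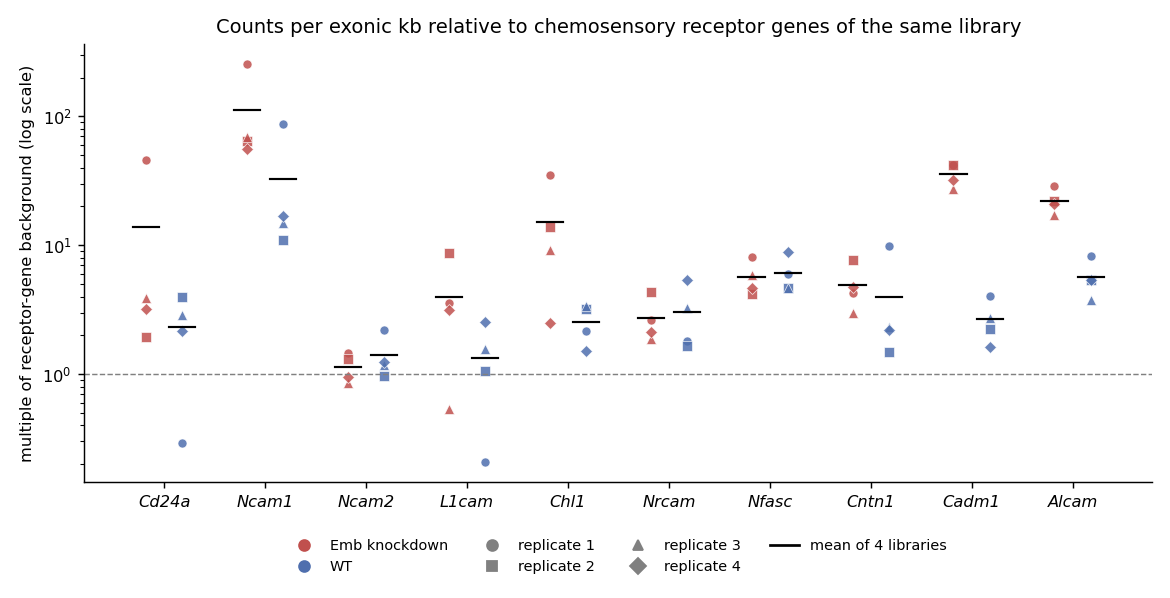
Counts per exonic kilobase of each gene as a multiple of those of 1506 chemosensory receptor genes in the same library, on a log scale, with Emb knockdown left of WT, the mean as a bar and the receptor level as a dashed line at 1. Ncam2 sits near the line, at 0.852 to 1.47 in Emb knockdown and 0.967 to 2.20 in WT. Cadm1 at 27.5 to 42.1 in Emb knockdown stands clear of its WT libraries at 1.61 to 4.06.

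Per length, Ncam1 was the most abundant of the 10 transcripts in both genotypes, and the order below it differed. In Emb knockdown the mean levels in CPM per exonic kilobase were 105 for Ncam1, 36.0 for Cadm1, 22.2 for Alcam, 14.2 for Chl1, 12.2 for Cd24a, 5.76 for Nfasc, 4.90 for Cntn1, 3.82 for L1cam, 2.73 for Nrcam and 1.14 for Ncam2. Ncam1, Cadm1 and Alcam did not overlap each other over these libraries, and Ncam2 lay below Nrcam in every library; the neighbours between Alcam and Nrcam overlapped. In WT the levels were 53.0 for Ncam1, 9.38 for Nfasc, 8.97 for Alcam, 6.42 for Cntn1, 4.65 for Nrcam, 4.195 for Cadm1, 3.94 for Chl1, 3.495 for Cd24a, 2.21 for Ncam2 and 2.03 for L1cam. There Ncam1, at 16.2 to 147.5, lay above Nfasc, at 6.83 to 13.4, and each later neighbour overlapped the one before it. Cadm1 was thus second in Emb knockdown and sixth in WT.

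The make-up of the 10 genes within a library does not depend on how libraries are scaled. Cadm1 made up 9.85% to 24.7% of their summed counts per exonic kilobase in Emb knockdown and 3.34% to 6.68% in WT. Nfasc made up 1.90% to 4.25% in Emb knockdown and 4.93% to 18.6% in WT, and Ncam2 0.343% to 0.773% and 1.81% to 2.92%. In these 3 genes the shares of the genotypes did not overlap, and in the other 7 they did. Ncam1 held 37.9% to 59.8% in Emb knockdown and 31.0% to 71.4% in WT, and the share of Alcam was 6.70% to 16.0% and 6.82% to 15.1%. Since the shares sum to a whole, a larger share of 1 gene lowers the others, and no share over all genes stands beside these counts.

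**Figure D4:**
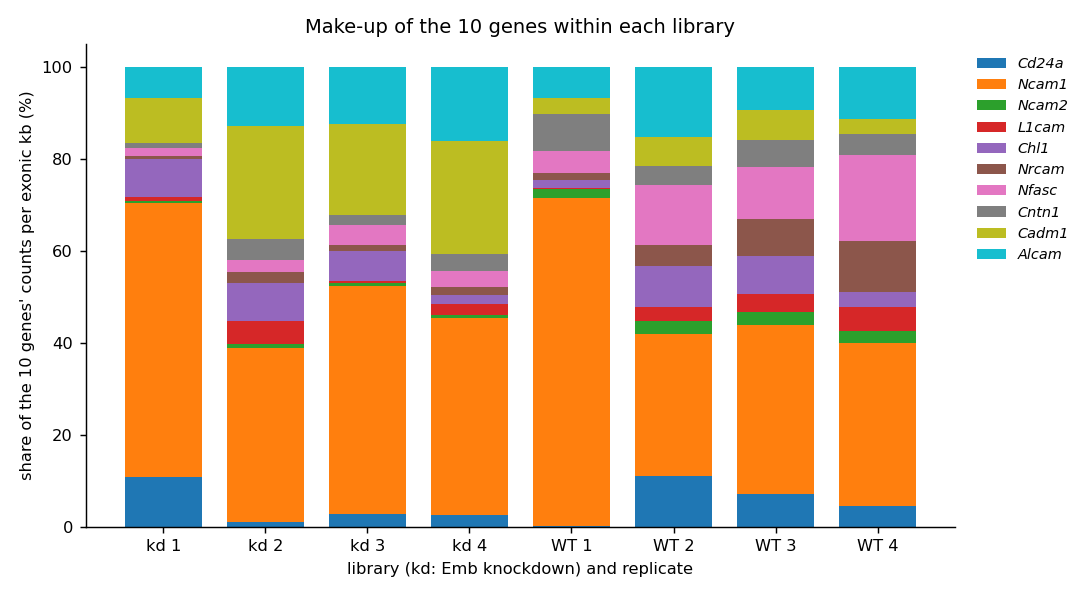
Share of each of the 10 genes in their summed counts per exonic kilobase within each library (stacked bars, in %), with the 4 Emb knockdown libraries (kd) left of the 4 WT libraries. The Cadm1 band covers 9.85% to 24.7% in Emb knockdown and 3.34% to 6.68% in WT, and Ncam1 is the largest band in each library.

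Most of the genes are long. The annotated spans of 8 of the 10 exceed 100 kb, and Ncam2 is longest at 426.1 kb, while L1cam spans 42.3 kb and Cd24a 6.0 kb; the median protein-coding gene spans 17.3 kb. Over the tested protein-coding genes the median log2 fold change was 0.026 for the 1947 genes over 100 kb and 0.098 for the 8278 shorter ones. The library with the highest value differed from gene to gene. WT replicate 1 was the highest WT library for 5 of the 10 genes (Ncam1, Ncam2, Cntn1, Cadm1 and Alcam) and the lowest for Cd24a and L1cam. Emb knockdown replicate 2 was the highest Emb knockdown library for 5 genes (Ncam2, L1cam, Nrcam, Cntn1 and Cadm1), and replicate 1 for Cd24a, Ncam1, Chl1 and Alcam.

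Promoter sequence is shown for Alcam and Ncam2, whose groups did not overlap with TMM scaling, in opposite directions. It is also shown for Chl1, with the largest fold change of the L1 family. RefSeq on GRCm38.p6 gave promoter windows for 7 of the 10 genes (11 windows in all); Cd24a, Ncam1 and Cadm1 had none in the table used. Each run is the 250 bases before the annotated start, 5′ to 3′ on the strand of the gene, with GC boxes (GGGCGG on either strand) in capitals. The Alcam window is chr16:52453082-52453331 (minus strand), the Ncam2 window chr16:81200447-81200696 (plus strand) and the Chl1 window chr6:103510626-103510875 (plus strand).
Alcam: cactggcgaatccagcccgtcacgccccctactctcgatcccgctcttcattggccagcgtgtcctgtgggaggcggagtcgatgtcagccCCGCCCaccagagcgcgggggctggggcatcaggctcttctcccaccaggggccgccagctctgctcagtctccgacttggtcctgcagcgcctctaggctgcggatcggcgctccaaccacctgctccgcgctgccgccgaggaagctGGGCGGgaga
Ncam2: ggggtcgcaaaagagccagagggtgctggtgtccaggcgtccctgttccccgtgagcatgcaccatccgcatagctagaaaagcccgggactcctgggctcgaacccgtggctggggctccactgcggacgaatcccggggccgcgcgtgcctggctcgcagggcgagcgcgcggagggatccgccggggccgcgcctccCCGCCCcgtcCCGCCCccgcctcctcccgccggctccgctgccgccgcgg
Chl1: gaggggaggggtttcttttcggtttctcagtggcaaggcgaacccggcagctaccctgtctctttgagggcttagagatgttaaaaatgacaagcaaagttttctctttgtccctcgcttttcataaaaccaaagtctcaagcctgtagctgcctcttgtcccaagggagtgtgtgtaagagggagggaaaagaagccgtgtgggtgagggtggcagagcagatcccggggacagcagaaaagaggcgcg

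GC boxes were found in the Alcam and Ncam2 windows and not in that of Chl1. A GC box stood in 6 of the 11 windows, of Alcam, L1cam, Ncam2, Nfasc and Nrcam, against 32.7% of 32851 mouse promoter windows of the same length; windows of 1 gene can overlap. A TATA box (TATAAA on either strand) stood in 1 of the 11 windows, of Cntn1, against 12.4% of all windows. An AP-1 site (TGANTCA on either strand) stood in 0 of the 11, against 6.75% of all windows. The G and C content was 69.2% for Alcam, 75.2% for Ncam2 and 52.4% for Chl1, where the median of all windows was also 52.4%. The windows of Alcam and Ncam2 were thus both rich in G and C. No direction is read for Ncam2 here, since its reads lay near the level of stray counts.

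Related adhesion genes gave a median near that of all genes. Of 38 other neural immunoglobulin adhesion genes 35 were tested, of which 16 were higher and 19 lower in Emb knockdown. The median log2 fold change was -0.097, against 0.037 over all genes, and 0 passed the edgeR adjusted p. At an unadjusted edgeR p under 0.05 there were 3 higher and 1 lower. Of all genes tested, 13.3% reached that p in either direction and 8.64% were higher. Cadm4, which Schwann cells use to hold axons, had 62.6, 56.2, 41.1 and 23.8 CPM in Emb knockdown and 23.2, 17.2, 4.56 and 5.62 CPM in WT, with no overlap between the groups (edgeR log2 fold change 1.86 ± 0.68, adjusted p = 0.312). Sirpa, the receptor for CD47 on myeloid cells and neurons, had 39.3, 22.8, 439.3 and 50.8 CPM in Emb knockdown and 10.3, 1.15, 10.7 and 19.7 CPM in WT, also with no overlap (3.72 ± 1.14, edgeR adjusted p = 0.295). Hepacam, an adhesion molecule of glia, had 2, 65, 16 and 16 counts in Emb knockdown and 1, 0, 8 and 1 in WT, and the groups overlapped (2.47 ± 1.09, edgeR adjusted p = 0.364). Icam5, a dendrite adhesion molecule of the forebrain, stood at -3.50 ± 1.44 (edgeR adjusted p = 0.334), with 324.2 CPM in WT replicate 2 against 0 to 21.1 CPM in the other WT libraries.

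The second list held partners of these molecules inside and outside the cell and enzymes that cut or sialylate them. Of its 50 genes 49 were found and 44 tested, of which 26 were higher and 18 lower in Emb knockdown (median log2 fold change 0.33). By edgeR 0 passed the adjusted p, and 5 higher and 3 lower had an unadjusted p under 0.05. The share of all genes tested at that unadjusted p was 13.3% in either direction and 8.64% higher. Adam10, a protease that sheds L1 family members and other adhesion molecules, had 37, 23, 39 and 14 counts in Emb knockdown and 3, 1, 9 and 0 in WT (edgeR log2 fold change 2.37 ± 0.86, adjusted p = 0.312). Itgb1, an integrin chain, had 86.6, 261.9, 80.5 and 57.6 CPM in Emb knockdown and 43.7, 19.5, 37.3 and 42.2 CPM in WT, and the groups did not overlap (1.77 ± 0.69, edgeR adjusted p = 0.322). Agrn, the matrix protein agrin, and Ptk2, the focal adhesion kinase, had log2 fold changes of 2.49 ± 0.96 and -2.59 ± 0.96 (edgeR adjusted p = 0.322 and 0.314), and both overlapped between the groups. Ptk2 had 216.1 CPM in WT replicate 1 against 6.85 to 43.7 CPM in the other WT libraries.

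**Figure D5:**
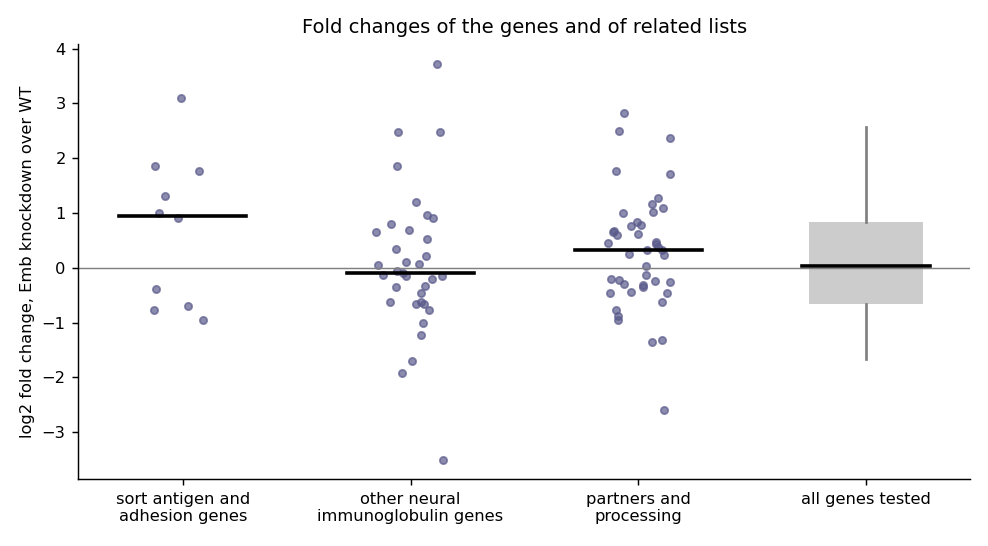
Log2 fold change, Emb knockdown over WT, of the 10 genes, of the 35 tested genes of the other neural immunoglobulin list and of the 44 tested partners and processing enzymes (points, with the median as a bar), beside all 11353 genes tested (box from the 25th to the 75th percentile, lines to the 5th and 95th). The medians are 0.95, -0.097, 0.33 and 0.037.

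The genes whose level followed the sort antigens most closely were listed as a description. For Ncam1 these were Frmd6 (Pearson r of log2 CPM 0.981 over the 8 libraries), Ankrd33b (0.975) and Mrgpra1 (0.968), each highest in replicate 1 of both genotypes. Frmd6 had 410, 161, 220 and 122 CPM in Emb knockdown and 268, 36.8, 77.6 and 70.3 CPM in WT. For Cd24a they were Myh4 (0.962), Osbpl3 (0.959) and Plekhg6 (0.956). Osbpl3 had 392, 15.4, 22.7 and 15.7 CPM in Emb knockdown and 3.86, 17.2, 35.8 and 16.9 CPM in WT. These values share their libraries and depth, and 37 tested genes reached an r above 0.9 with Ncam1 and 28 with Cd24a.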

How the data were processed

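The authors deposited 1 table of raw counts per gene, not normalized, for 8 libraries sorted from mouse colon on CD24 and CD56 and made with a Smart-seq kit, per the labels' protocols. Per the submitters' processing notes, cutadapt and the build mm10 were used; the sources used here name no aligner, counter, strand setting or annotation release, so reads of overlapping and antisense genes cannot be told apart.

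The whole table went through edgeR 4.0.16 (R 4.3.3): filterByExpr defaults (minimum count 10, minimum total 15), TMM factors, robust quasi-likelihood models with genotype as the only term, and Benjamini-Hochberg adjustment over 11353 genes at 0.05. All 10 genes passed the filter, Cd24a on low counts. Log2 CPM used a prior count of 2, and standard errors came from the fold change and the F statistic. The fit was checked on simulated data. DESeq2 1.42.0 and limma 3.58.1 voom were alternatives, with other scalings and filters, thinning, a replicate block and single libraries left out. Exon lengths and positions came from GENCODE M21 (GRCm38, which mm10 names), with 52133 of 55414 identifiers found.

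Genes named beside the 10 were the 4 of each related list with the smallest unadjusted p, the 3 most like each sort antigen gene by Pearson r, genes overlapping the 10, and up to 3 markers per cell type; single neuronal and glial markers and libraries were otherwise picked after their values were seen. The genes and lists were chosen with earlier results of these data known. Some marker results are not reported here. Depth limits low counts, and reads amplified by PCR with no molecular identifiers may repeat 1 molecule.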

Additional observations from a re-analysis of the deposited data

Results flagged for a closer look

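In 5 of the 20 sets of 4 libraries (10 genes in 2 genotypes) 1 library lay far from the other 3 by Dixon's criterion. The gap, in CPM, took 0.838 to 0.944 of the whole range. A chance rate of about 1 such set in 20 holds for independent sets of normally distributed values. Here the 20 sets share the same 8 libraries, and CPM were not checked for that distribution. The 5 sets are thus a description, with no number expected by chance. Gaps on a log scale were not tested. Emb knockdown replicate 1 was such a library for Cd24a, at 99.9 CPM, and for Ncam1, at 1865 CPM. Emb knockdown replicate 2 was one for Nrcam, at 55.7 CPM. WT replicate 1 was one for Ncam1, at 1278 CPM, and for Cntn1, at 157 CPM. None of the 5 concerned Cadm1 or Alcam.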

How the results depend on the processing

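The 10 genes gave 179 estimates under 18 alternative settings, of which 7 had the other sign. Cd24a stood at -0.091 to 2.21 with single libraries left out and at -0.38 with both replicates 1 left out; the DESeq2 test gave it no p. Cntn1 stood at -0.61 to 0.77 with single libraries left out, 0.87 with both replicates 1 left out, 0.32 scaled to receptor genes, 0.059 with limma voom and 0.088 with the replicate block. The Wald test of DESeq2 called 749 of 10732 genes (526 higher, 223 lower), 2 of the 10 among them: Cadm1 (adjusted p = 3.9e-07) and Alcam (0.0432). With no filter on low counts edgeR called 910 of 48530 genes, of which Cadm1 was 1 (adjusted p = 0.0229), and with at least 1 CPM in at least 4 libraries it called 4 of 26381, none of the 10. Over the alternatives the adjusted p of Cadm1 ran up to 0.530. The number of the 10 genes with an unadjusted edgeR p under 0.05 was 4 when scaled to receptor genes, where 19.4% of all genes tested reached it. That number was 1 with the replicate block, where 8.09% of all genes did. With single libraries left out it was 1 to 3, where 10.1% to 14.5% of all genes did. It was 1 without WT replicate 2, 3 or 4 or Emb knockdown replicate 2. Same-numbered libraries deviated together only weakly, with correlations of 0.0113 to 0.0337 across genes. Of the Emb knockdown libraries, 3 of 4 were nearest to the WT library of their number. Correlations this small in sparse counts do not settle whether same-numbered libraries were handled together. With the block, edgeR listed 918 genes at an unadjusted p under 0.05, against 1508 without it. That count was 2596 with the CPM filter and 5455 with none. Of those genes 981 were higher with TMM, 419 of 1957 with library totals alone and 2060 of 2201 when scaled to receptor genes. Depth limits Cd24a, L1cam and Ncam2 most, with as few as 1, 2 and 14 counts in a WT library.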
